A study of Mus musculus with 30 samples.

Results

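The LIF and CNTF receptor signalling genes are 8 genes taken by symbol from the 55401 genes of the count tables: the receptor chains Cntfr, Lifr, Il6st and Il6ra, the kinase Jak1, the transcription factor Stat3, and the feedback inhibitors Socs2 and Socs3. The list was chosen by Cntfr exon counts, which were higher after SRCAP loss in the SYAT time course, with the genes that share its receptor chains and signalling, so the Cntfr values of that time course are given as a description with no test. Exon counts come first and intron counts beside them, and every comparison stays within 1 count table.

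Nuclear RNA was sequenced from mouse embryonic stem (ES) cells in 30 libraries, 15 conditions with 2 replicates each. SYAT cells are CGR8 ES cells, 1 clone, whose SRCAP, the ATPase that places the histone variant H2A.Z, carries a YPet-AID tag on both alleles beside a stably expressed OsTir1, so that the auxin IAA degrades the protein. Their time course held a control kept in auxinole, which blocks this degradation, and IAA at 500 µM for 2, 4, 6 and 8 h. SYAT cells that stably expressed mCherry with a mitotic degron were also sorted into early (EG1) and late (LG1) G1 phase, as a control or with IAA for 1 h. They are called the sorted cells here. Wild-type (wtSRCAP) or catalytically dead (cdSRCAP) SRCAP was expressed in SYAT cells from a doxycycline-inducible transgene fused to mCherry, 1 clone each. They had doxycycline for 24 h, with IAA for 4 h or, as the control, auxinole and no IAA. According to the study, cells with high and similar mCherry were taken by sorting shortly before RNA was prepared. CGR8 cells, the parental line with no AID tag and no OsTir1, were left untreated or given IAA at 500 µM for 4 h. All cells had been moved to serum medium with added LIF before the experiments.

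Leukaemia inhibitory factor (LIF) keeps mouse ES cells undifferentiated by joining LIFR to gp130, the shared signalling chain that Il6st encodes. Ciliary neurotrophic factor (CNTF) first binds CNTFR, a chain on a membrane lipid anchor with no signalling domain of its own, and then engages the same LIFR and gp130 pair. The kinase JAK1, held by these chains, phosphorylates STAT3, which enters the nucleus and switches on target genes, Socs3 among them, whose protein shuts the receptor down again.

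Depth was 45617992 to 60214521 exon counts per library in the CGR8 table, 17540823 to 22873893 in the SYAT time course, 19740778 to 26672402 in the sorted cells and 12236493 to 26369773 with wtSRCAP or cdSRCAP. The shallowest library, wtSRCAP with IAA replicate 1, also gave 23.9% of its counts to 1 gene. In the time course the largest such share was 10.2%, in 6 h replicate 2. The 6 h replicates were also the furthest apart there, with a chi-square per degree of freedom of 94.4 against 27.4 to 43.3 at the other times. The 7 ES cell markers were all above 1 CPM (an exon count scaled to the library's total) on average in every table, with summed levels of 1465 to 4268 CPM per library. The summed marker levels of fibroblasts (6.80 to 52.3 CPM), primitive endoderm (5.35 to 24.99 CPM), trophoblast (4.95 to 25.9 CPM) and primed or mesendoderm cells (42.4 to 199.9 CPM, led by Otx2) were lower in every library. Their part in the results was not tested. Srcap RNA itself, which a protein degron need not lower, differed by 0.13 to 0.32 on the log2 scale after IAA in SYAT cells and by -0.09 in CGR8 cells. The intron columns of the time course and of EG1 hold exonic reads as well. Of 1302 genes with a single exon block, 51.9% to 52.2% had intron counts in the time course, and of 1993 such genes 46.0% to 46.2% had them in EG1, against at most 0.100% in LG1, CGR8 and the wtSRCAP and cdSRCAP cells.

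On the RPKM scale, CPM per kilobase of exon, Il6ra was the lowest of the 8 genes in all 6 groups without IAA. In the SYAT control Stat3 stood at 13.9 ± 0.106 RPKM (SD, n = 2), Socs3 at 13.8 ± 2.45 and Lifr at 13.2 ± 3.42, which did not differ beyond their spread. Below them came Socs2 at 7.64 ± 0.498 RPKM, Il6st at 6.40 ± 0.879, Jak1 at 4.56 ± 0.688, Cntfr at 3.08 ± 0.765 and Il6ra at 0.125 ± 0.0217. The chains that signal for LIF, LIFR and gp130, thus stood above CNTFR at the RNA level, and Il6ra, the chain specific to IL-6, rested on 12 to 114 exon counts per library over all tables. In the CGR8 control Socs3 stood at 52.5 ± 2.58 RPKM, Lifr at 26.0 ± 2.71 and Stat3 at 19.4 ± 1.03, and the lowest 3 were again Jak1 at 6.57 ± 0.285, Cntfr at 2.97 ± 0.0454 and Il6ra at 0.223 ± 0.121. The tables were scaled separately, so levels set side by side across them are not a test.

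**Figure D1:**
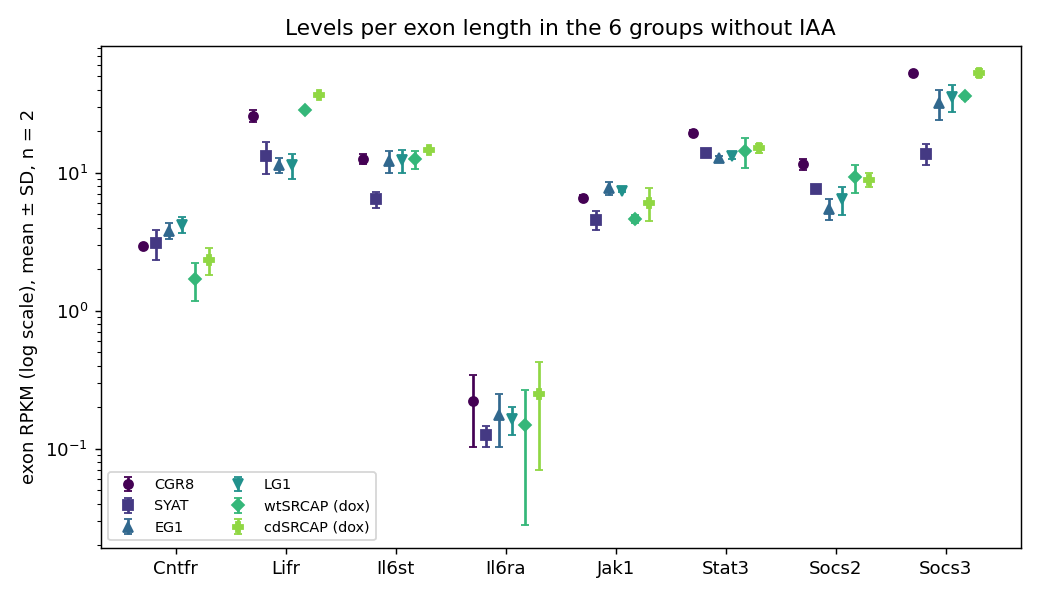
Exon RPKM on a log axis for the 8 genes in the 6 groups without IAA, as mean and SD of 2 libraries. Il6ra sits lowest in every group, and Cntfr lies between 1.70 and 4.21 RPKM.

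Cntfr (ENSMUSG00000028444.17) lies on the minus strand of chromosome 4, from 41657498 to 41697089 in GRCm38 (mm10), with 2782 bases of exon. In the SYAT control its exon counts were 199 and 171 (10.1 and 7.06 CPM). They were 256 and 268 (13.96 and 11.4 CPM) after 2 h of IAA, 316 and 379 (17.0 and 15.9 CPM) after 4 h, 408 and 423 (23.7 and 26.0 CPM) after 6 h, and 410 and 465 (20.1 and 19.1 CPM) after 8 h. At each time both IAA libraries were above both controls, and the highest level was at 6 h. As Cntfr was put on the list for being higher after SRCAP loss, the fitted log2 fold changes are a description. They were 0.57, 0.94, 1.54 and 1.20 at 2, 4, 6 and 8 h, with a standard error (SE) of 0.21 each. They moved with the control library used, from 0.33 without control replicate 2 to 0.84 without control replicate 1 at 2 h, and from 1.30 to 1.81 at 6 h. Cntfr intron levels gave the same order of times, at 10.8 and 9.72 CPM in the control, 20.9 and 20.3 CPM at 2 h, 27.2 and 26.6 CPM at 4 h, 35.2 and 37.3 CPM at 6 h and 29.7 and 34.5 CPM at 8 h. Summed markers of other cell types were also above their controls at 6 h for fibroblasts (31.6 to 40.1 CPM against 24.1 to 29.8), primitive endoderm (17.3 to 17.7 CPM against 12.9 to 16.1) and trophoblast (20.4 to 23.2 CPM against 10.7 to 16.3), and primed or mesendoderm markers, at 106.9 to 155.2 CPM against 154.3 to 155.9, overlapped them. Their part in the result was not tested. In these bulk samples more cells that express a gene and more RNA per cell cannot be told apart.

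**Figure D2:**
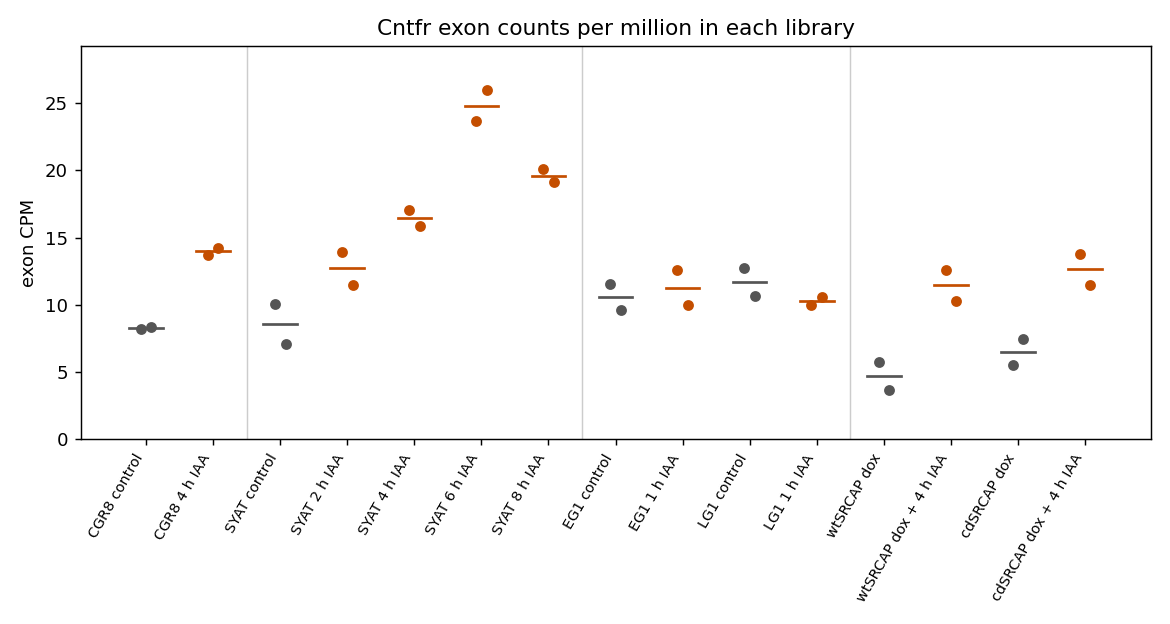
Cntfr exon CPM in each of the 30 libraries, with a line at each group mean, grey without IAA and orange with IAA, and grey rules between count tables. The SYAT libraries stand at 7.06 and 10.1 CPM in the control and at 23.7 and 26.0 CPM after 6 h of IAA, and both CGR8 libraries with IAA lie above both CGR8 controls.

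Sequence upstream of an annotated start is shown for Cntfr, the gene on which the list turns, and for Socs3, the only member with a match to the STAT motif searched. RefSeq (GRCm38.p6) lists 6 start windows for Cntfr. The most upstream one covers chr4:41696038-41696287, minus strand, inside the GENCODE gene body and over no annotated exon. The Socs3 stretch is chr11:117969452-117969616, minus strand, and ends where an annotated exon begins. Capitals mark a match to TTCNNNGAA, a core to which STAT dimers bind, at bases 117969512 to 117969520.
Cntfr: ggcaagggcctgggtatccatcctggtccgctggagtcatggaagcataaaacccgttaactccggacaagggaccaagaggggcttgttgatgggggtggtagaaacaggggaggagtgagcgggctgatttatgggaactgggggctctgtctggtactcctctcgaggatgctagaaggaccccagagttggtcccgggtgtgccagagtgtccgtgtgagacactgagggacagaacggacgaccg
Socs3: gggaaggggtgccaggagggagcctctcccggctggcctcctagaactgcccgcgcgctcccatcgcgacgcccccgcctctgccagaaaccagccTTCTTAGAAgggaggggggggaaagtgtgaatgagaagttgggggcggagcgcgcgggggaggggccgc
The motif reads the same on both strands, so a single search covers them. It occurred in the 250 upstream bases of 7.02% of 32851 RefSeq start windows. Of the 8 genes 7 had at least 1 window, and Socs3 alone had a match. A match describes letters in a window and not a bound site.

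CGR8 cells carry neither the tag nor the plant receptor through which IAA degrades SRCAP, and serve as the control for IAA itself. Cntfr exon counts were 349 and 448 (8.16 and 8.34 CPM) in CGR8 controls and 744 and 882 (13.7 and 14.2 CPM) after 4 h of IAA. Both treated libraries were above both controls. The log2 fold change was 0.76 with an SE of 0.18 and a 95% interval of 0.35 to 1.17, beside the 0.94 fitted in SYAT cells at 4 h. With edgeR, the unadjusted p was 0.00254 and the adjusted p 0.540, so Cntfr was not called. The rule for all but the G1-sorted cells was an absolute log2 fold change over 0.5 and an adjusted p under 0.05. Its log2 fold change was above 0 in all 8 alternatives, with an edgeR or DESeq2 adjusted p of 0.0195 to 1.00. It was called in 3 of them, among them the fit without control replicate 2 (log2 fold change 0.78, adjusted p = 0.0195 in edgeR). Both treated libraries above both controls with a log2 fold change over 0.5 was a common pattern, met by 10.2% of the 20250 genes tested in CGR8 and by 7.89% of 19205 in SYAT cells at 4 h. In the same libraries the summed markers of primed or mesendoderm cells (72.4 to 75.2 CPM with IAA, 42.4 to 57.8 CPM without) and of ES cells (4262 to 4268 CPM against 3458 to 4242 CPM) also stood higher with IAA, and their part in the result was not tested. Cntfr introns in CGR8 were at 57.0 and 52.1 CPM without and 74.0 and 70.0 CPM with IAA, a log2 fold change of 0.40 (SE 0.19, adjusted p = 0.925 in edgeR).

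The other 7 genes had smaller exon differences in CGR8. Lifr was at 259 and 300.4 CPM in the controls and 278 and 313 CPM with IAA, and Il6st at 132 and 148 CPM against 142 and 142 CPM, so for both receptor chains the groups overlapped. Stat3 was lower with IAA, at 192 and 178 CPM in the controls and 164 and 149 CPM after treatment (log2 fold change -0.24, SE 0.13), and so was Socs3, at 157 and 147 CPM against 141 and 113 CPM (-0.26, SE 0.15). Socs2, which restrains growth hormone and cytokine receptors, had 118 and 103 CPM against 93.4 and 100.2 CPM (-0.19, SE 0.14). In none of these 3 genes did the groups overlap. The share of all genes lower without overlap at such small differences was not taken. Over a log2 fold change of 0.5, 10.2% of all genes were higher without overlap. The kinase gene Jak1 had a log2 fold change of -0.07 (SE 0.14). Il6ra had 2.67 and 1.19 CPM against 1.99 and 1.84 CPM, with overlapping groups.

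After 4 h of IAA, Stat3, Socs2 and Socs3 exons were each lower in both CGR8 libraries and higher in both SYAT libraries than in the controls, an arrangement found in 3.53% of the 18368 genes tested in both tables. In introns Stat3 and Socs3 had it, beside 3.96% of 11505 genes. The difference between the cell lines was not tested, because the tables were made separately. SYAT controls were also kept in auxinole and CGR8 controls left untreated, and the part of this was not tested.

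None of the 8 genes was called in CGR8 exons or introns by DESeq2, which called 0.38% of 30751 genes in exons and 0.143% of 18898 in introns. None was called by edgeR either, which called 0.00988% of all exon tests and 0.022% of the 13634 intron tests. At an unadjusted p under 0.05, 1 of 8 passed in exons (Cntfr, against 9.16% of all genes) and 2 of 8 in introns (Stat3 and Socs3, against 5.24%). Stat3 intron levels were 234 and 221 CPM without and 174 and 172 CPM with IAA (log2 fold change -0.39, SE 0.13, adjusted p = 0.925 in edgeR). Socs3 introns were at 26.3 and 21.1 CPM without and at 11.8 and 7.55 CPM with IAA (-1.29, SE 0.38, adjusted p = 0.910 in edgeR). Without control replicate 2 the Socs3 intron log2 fold change was -1.45 with an adjusted p of 0.0120 in edgeR, and it was then called. Over all 8 alternatives it ran from -1.64 to -0.49, the latter the shrunken DESeq2 value, with adjusted p up to 1.00.

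In the SYAT time course Lifr exons were at 116 and 169 CPM in the control, 146 and 188 CPM at 2 h, 160.2 and 200.5 CPM at 4 h, 175 and 199.9 CPM at 6 h and 173 and 209 CPM at 8 h. The controls lay so far apart that both IAA libraries were above both of them at 6 and 8 h only. Its log2 fold changes were 0.23, 0.34, 0.40 and 0.42 in order of time (SE 0.21 each), and the adjusted p at 8 h was 0.405 in edgeR. Each value moved by over 1.5 times with the library left out, from -0.013 (without control replicate 1, which had the lower level) to 0.52 at 2 h, 0.10 to 0.63 at 4 h, 0.16 to 0.69 at 6 h and 0.18 to 0.71 at 8 h. Il6st had 64.2 and 78.0 CPM in the control, and its log2 fold changes lay between 0.06 and 0.20. Il6ra rested on 21 to 35 counts per library, with a log2 fold change of 0.70 and an SE of 0.40 at 6 h.

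Of the genes of the signal carriers, Jak1 was at 36.4 and 29.4 CPM in the SYAT control and at 30.3 and 24.8 CPM after 8 h, a log2 fold change of -0.26 with a 95% interval of -0.69 to 0.17. Stat3 was at 133 and 132 CPM in the control and at 139 and 159 CPM after 6 h, a log2 fold change of 0.17 (SE 0.12). Its 95% interval at 6 h was -0.09 to 0.43. Both Stat3 libraries were above both controls in exons at 2, 4 and 6 h (log2 fold changes 0.11, 0.092 and 0.17) and in introns at 2, 4, 6 and 8 h (0.15, 0.14, 0.18 and 0.073), and the exon groups overlapped at 8 h.

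The inhibitors Socs2 and Socs3 differed in the times at which both libraries stood above both controls, and this difference was not tested. Socs2 was at 69.5 and 76.2 CPM in the control, 88.3 and 95.5 CPM at 2 h, 85.4 and 92.8 CPM at 4 h, 74.0 and 92.2 CPM at 6 h and 68.8 and 78.9 CPM at 8 h, without overlap at 2 and 4 h. Its log2 fold change was 0.33 at 2 h (SE 0.15, unadjusted p = 0.0461, adjusted p = 1.00 in edgeR) and 0.02 at 8 h. Socs3 was at 34.8 and 44.9 CPM in the control, 41.9 and 51.6 CPM at 2 h, 50.3 and 53.6 CPM at 4 h, 46.0 and 66.3 CPM at 6 h and 50.8 and 47.2 CPM at 8 h. At 4, 6 and 8 h both libraries were above both controls. Its log2 fold change was highest at 6 h, 0.49 (SE 0.20, unadjusted p = 0.0339, adjusted p = 0.269 in edgeR). Without the first of the 6 h libraries it was 0.74 with an adjusted p of 0.0238 in edgeR, and was then called, and without the second it was 0.21 with an adjusted p of 0.703.

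Of these 7 genes none was called at any time in exons or introns by edgeR or by DESeq2. DESeq2 called 0.0223%, 0.343%, 1.58% and 1.05% of 35880 genes in exons at 2, 4, 6 and 8 h. Its intron shares were 0.196%, 0.948%, 2.06% and 1.86% of 22464 genes. In exons edgeR called 0% of the 19205 genes tested at 2 and 4 h, 0.0677% at 6 h and 0.00521% at 8 h. In introns, with 14719 genes tested, it called 0% at 2 and 4 h, 0.0136% at 6 h and 0.00679% at 8 h. At an unadjusted p under 0.05, 1 of the 7 passed in exons at 2 h (Socs2, against 3.92% of all genes), 0 at 4 h (9.09%), 1 at 6 h (Socs3, 16.1%) and 0 at 8 h (13.6%). In introns 0 of 7 passed at each time, against 5.13%, 9.5%, 14.5% and 13.5% of all genes. Both IAA libraries above both controls in exons, with a log2 fold change over 0.5, was met by 5.8%, 7.89%, 11.4% and 9.41% of all genes at 2, 4, 6 and 8 h. The share at smaller differences, such as those of Lifr, Stat3, Socs2 and Socs3, was not taken. The median exon log2 fold change of the 7 lay between 0.15 and 0.20, and that of all genes between 0.003 and 0.03.

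**Figure D3:**
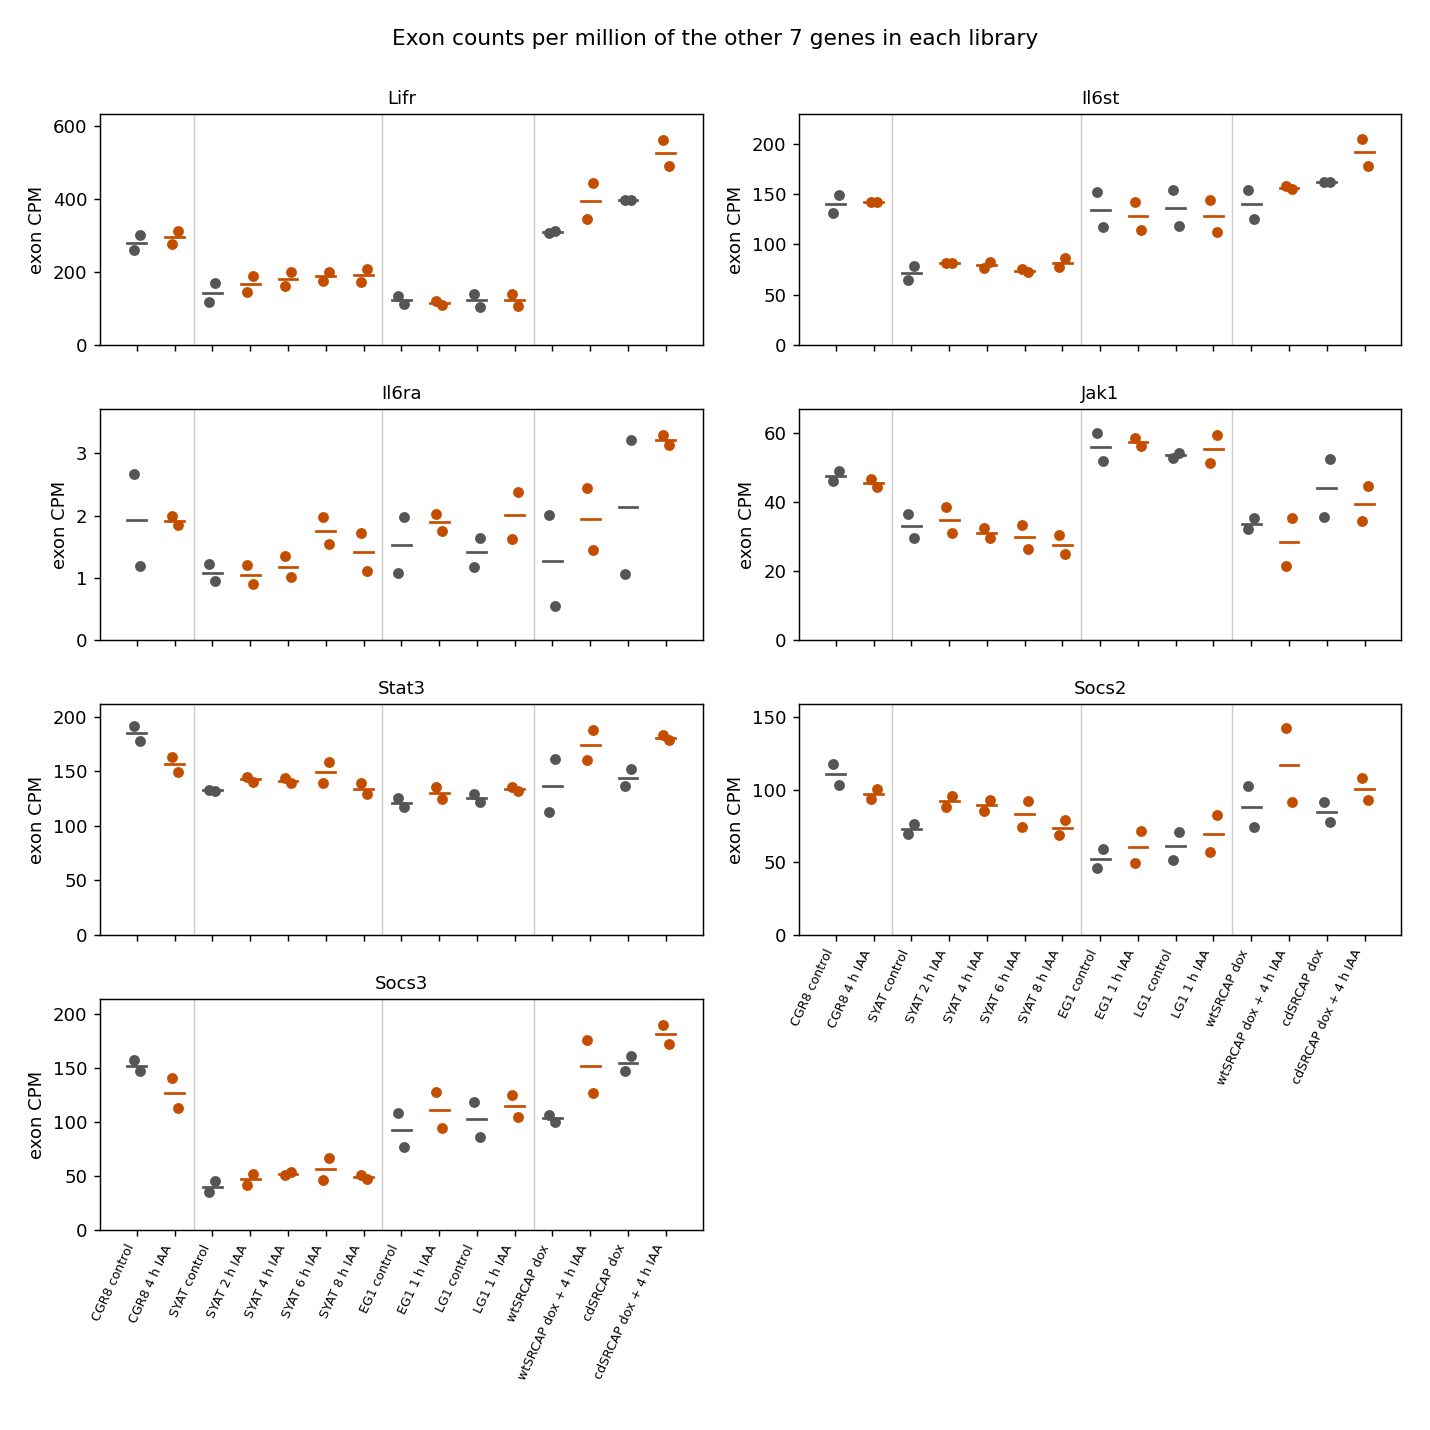
Exon CPM of the other 7 genes in each library, 1 panel a gene, with a line at each group mean, grey without IAA and orange with IAA, and grey rules between count tables. Lifr controls of the SYAT time course spread from 116 to 169 CPM, and Il6ra stays at or below 3.30 CPM throughout.

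The intron values of Cntfr and Lifr were also taken with the exon column subtracted from the intron column of the same library, since the intron columns of the time course hold both kinds of read. Cntfr then stood at 7.35 and 22.8 CPM in the control, on 18 and 72 counts, and at 57.3 and 69.4 CPM at 2 h, with a log2 fold change of 2.05 at 2 h and 2.59 at 6 h in place of 1.01 and 1.82. For Lifr the same step gave log2 fold changes of 1.54, 1.64, 2.04 and 1.92 in place of 0.31, 0.41, 0.50 and 0.53, with an adjusted p of 0.200 at 6 h in edgeR. The size of an intron difference in this table thus depends on how exonic reads are treated, while its direction for Cntfr and Lifr did not. For Socs2 the subtraction left 0 counts in every library, its intron column being no larger than its exon column. The subtraction therefore does not isolate intronic reads for every gene.

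After 1 h of IAA in sorted G1 cells, Cntfr exons and introns gave different pictures. In exons EG1 cells had 11.5 and 9.60 CPM as a control and 12.6 and 9.95 CPM with IAA (log2 fold change 0.09, 95% interval -0.35 to 0.53). LG1 cells had 12.8 and 10.7 CPM against 10.0 and 10.5 CPM (-0.19, 95% interval -0.63 to 0.25). The groups overlapped in EG1 and not in LG1, where IAA libraries were the lower. The LG1 response minus the EG1 response was -0.28 with an interval of -0.91 to 0.34 (adjusted p = 1.00, edgeR). Cntfr introns were at 20.7 and 17.9 CPM in EG1 controls and 24.5 and 26.3 CPM with IAA (log2 fold change 0.40, SE 0.24), and at 31.9 and 33.8 CPM in LG1 controls and 34.1 and 52.1 CPM with IAA (0.39, SE 0.24). Both IAA libraries were above both controls in either phase, and the adjusted p was 1.00 in edgeR for each.

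In exons the log2 fold changes of the other members ran from -0.10 (Lifr) to 0.32 (Il6ra, SE 0.39) in EG1 and from -0.09 (Il6st) to 0.51 (Il6ra, SE 0.39) in LG1. Stat3 had 125 and 117 CPM against 135 and 124 CPM in EG1, and Socs3 108 and 76.7 CPM against 127 and 94.3 CPM, with overlapping groups in both. In LG1 both Stat3 libraries were above both controls (log2 fold change 0.093). For the G1-sorted cells a gene was called at an absolute log2 fold change over 0.25 and an unadjusted p under 0.05, the looser thresholds that the study used there. No member met them in exons by DESeq2, against 0.239% of 36790 genes in EG1, 0.111% in LG1 and 0.37% between LG1 and EG1 controls. Nor did any by edgeR, against 1.22% of 21020 genes, 1.02% and 1.44% in the same order. The count at an unadjusted p under 0.05 alone was also 0 in each, and the test of the LG1 against the EG1 response called 0 members and 0% of all genes. With a replicate block edgeR called Socs3 in EG1 exons (log2 fold change 0.27, unadjusted p = 0.00118, adjusted p = 0.298).

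In sorted introns 0 of 8 met these thresholds in EG1 (2.28% of 17441 genes) and 1 of 8 in LG1 (3.94%), with edgeR. That gene was Lifr, with 102.3 and 77.0 CPM in the LG1 controls and 139 and 114 CPM with IAA (log2 fold change 0.50, SE 0.20, unadjusted p = 0.0426, adjusted p = 1.00 in edgeR). DESeq2 made the same number of calls in LG1, against 2.41% of 25517 genes. EdgeR and DESeq2 both took EG1 and LG1 intron columns together, although those of EG1 hold exonic reads and those of LG1 nearly none. Fitted with only the LG1 conditions, edgeR gave Lifr 0.48 (SE 0.23, unadjusted p = 0.0764) and called 0 members. The log2 fold change of Lifr ran from 0.31 without LG1 control replicate 2 to 0.71 without LG1 control replicate 1. Lifr was not called without LG1 control replicate 2, without LG1 IAA replicate 1 (0.35, unadjusted p = 0.184 in edgeR), with no filter on low counts or with only the conditions compared. The number of members called was 0 without LG1 control replicate 2 and 3, Lifr not among them, without LG1 IAA replicate 1. With the replicate block it was 3, and the share of all genes called under this setting was not taken. In LG1 introns 7 of the 8 members, all but Jak1, had both IAA libraries above both controls, beside 13.3% of all genes. In the same columns Ctf1, whose product cardiotrophin-1 also signals through LIFR and gp130, was lower and met the thresholds (log2 fold change -1.0, SE 0.30, adjusted p = 1.00 in edgeR).

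In cells that expressed wtSRCAP or cdSRCAP, Cntfr stood higher with IAA than without. With wtSRCAP its exon counts were 89 and 81 (5.76 and 3.68 CPM) without IAA and 129 and 263 (12.6 and 10.3 CPM) after 4 h of IAA. With cdSRCAP they were 73 and 193 (5.50 and 7.47 CPM) without and 264 and 256 (13.8 and 11.5 CPM) with IAA. In both lines the groups did not overlap. With wtSRCAP the summed markers of fibroblasts (6.80 to 7.63 CPM without IAA, 13.7 to 14.4 CPM with it), trophoblast (4.95 to 7.12 CPM against 8.14 to 18.8 CPM) and ES cells (2352 to 2816 CPM against 3154 to 3306 CPM) also stood higher with IAA. With cdSRCAP those of trophoblast did (6.33 to 6.58 CPM against 11.7 to 12.9 CPM), and their part in the results was not tested. The log2 fold change was 1.28 with wtSRCAP (SE 0.33, unadjusted p = 0.00361, adjusted p = 0.622 in edgeR) and 0.96 with cdSRCAP (SE 0.32, unadjusted p = 0.0158, adjusted p = 0.751 in edgeR). The cdSRCAP response minus the wtSRCAP response was -0.32 with a 95% interval of -1.36 to 0.71 (adjusted p = 1.00 in edgeR), so that neither line was shown to respond more. Over 9 alternatives the adjusted p with wtSRCAP ranged from 0.0123 to 1.00 in edgeR or DESeq2. The lowest was that of the replicate block, with which edgeR called Cntfr (log2 fold change 1.29). Both IAA libraries above both controls with a log2 fold change over 0.5 was met by 7.47% of 19111 genes with wtSRCAP and 7.89% with cdSRCAP. Cntfr was 1 of 66 genes, 0.361% of 18262, that met this in CGR8, wtSRCAP and cdSRCAP cells alike. As Cntfr was chosen for being higher after SRCAP loss, its place among them is a description with no test. Its p-values in these 2 lines may not be independent of that choice either.

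Cntfr introns followed its exons here, in a table whose intron columns hold few exonic reads. They were at 19.9 and 15.6 CPM with wtSRCAP, 36.1 and 39.3 CPM with wtSRCAP and IAA, 34.5 and 30.7 CPM with cdSRCAP, and 68.4 and 46.1 CPM with cdSRCAP and IAA. The log2 fold change after IAA was 1.09 with wtSRCAP (SE 0.27, adjusted p = 0.160 in edgeR, 0.0441 and called with the replicate block) and 0.81 with cdSRCAP (SE 0.26, adjusted p = 0.261 in edgeR). Without IAA, cdSRCAP cells were above wtSRCAP cells by 0.88 in introns (SE 0.27, adjusted p = 0.445 in edgeR) and by 0.47 in exons (SE 0.33).

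Lifr was also higher with IAA in both lines. Its exons were at 307 and 312 CPM with wtSRCAP, 347 and 444 CPM with wtSRCAP and IAA, 399 and 397 CPM with cdSRCAP, and 562 and 491 CPM with cdSRCAP and IAA. The groups did not overlap in either line, and the log2 fold changes were 0.35 (SE 0.21) and 0.40 (SE 0.21). At such sizes the share of all genes without overlap was not taken. Lifr introns were at 223 and 229 CPM with wtSRCAP against 433 and 311 CPM with IAA, a log2 fold change of 0.71 (SE 0.17, adjusted p = 0.149 in edgeR). DESeq2 called this gene (log2 fold change 0.65, adjusted p = 0.0234). Without IAA replicate 2 edgeR called it too, at 0.93 with an adjusted p of 0.0448, as it did with the replicate block (0.70, adjusted p = 0.0260) and with no filter on low counts (0.69, adjusted p = 0.0146). Without IAA replicate 1 the value was 0.45 with an adjusted p of 0.409. Between the control lines the block called Lifr introns (0.65, adjusted p = 0.0492), higher with cdSRCAP.

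Socs3 exons were at 107 and 100.1 CPM with wtSRCAP and at 176 and 127 CPM with wtSRCAP and IAA, with a log2 fold change of 0.55 (SE 0.22, unadjusted p = 0.0315, adjusted p = 0.663 in edgeR). With the replicate block edgeR called it (0.54, adjusted p = 0.0464). With cdSRCAP they were at 147 and 161 CPM without and 189.8 and 172 CPM with IAA (0.23, SE 0.22). Neither pair of groups overlapped, and the share of all genes without overlap was not taken at a log2 fold change as small as that with cdSRCAP. Jak1 had 32.0 and 35.2 CPM with wtSRCAP against 21.4 and 35.3 CPM with IAA, and the groups overlapped. The log2 fold changes of Stat3 and Socs2 with wtSRCAP, 0.35 and 0.40, also came from overlapping groups.

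Without a replicate block no member was called in exons by edgeR or DESeq2 in this table, against 0.00523% of all genes called by edgeR after IAA with wtSRCAP, 0% with cdSRCAP, 0% between the lines without IAA and 0.00523% between them with IAA. DESeq2 called 0.0423%, 0.0211%, 0.0664% and 0.00906% of 33130 genes in the same order. At an unadjusted p under 0.05 in edgeR, 2 of 8 passed with wtSRCAP (Cntfr and Socs3, against 7.4%), 1 of 8 with cdSRCAP (Cntfr, against 5.64%), 1 of 8 between the lines without IAA (Socs3, against 3.82%) and 0 of 8 with IAA (5.03%). Cntfr was chosen for being higher after SRCAP loss, so counts that hold it, here and in introns, are a description. Apart from Cntfr, Socs3 alone passed in exons with wtSRCAP and no member with cdSRCAP. In introns edgeR called 0 of 8 in each comparison, against 0.299% of 12702 genes with wtSRCAP, 0.236% with cdSRCAP, 0.102% between the lines without IAA and 0.0157% with IAA. DESeq2 called 1 of 8 with wtSRCAP, Lifr, against 0.919% of 20012 genes, and 0 in the other 3, against 0.77%, 0.455% and 0.575%. At an unadjusted p under 0.05 the intron numbers were 2 of 8 (Cntfr and Lifr, 12.4%), 1 of 8 (Cntfr, 11.3%), 4 of 8 (Il6st, Cntfr, Jak1 and Lifr, 7.07%) and 2 of 8 (Cntfr and Jak1, 10.2%) in the same order. The tests of the cdSRCAP against the wtSRCAP response called 0 members and 0% of all genes in exons and in introns, by edgeR, with 0 members at an unadjusted p under 0.05 and 0 by DESeq2.

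**Figure D4:**
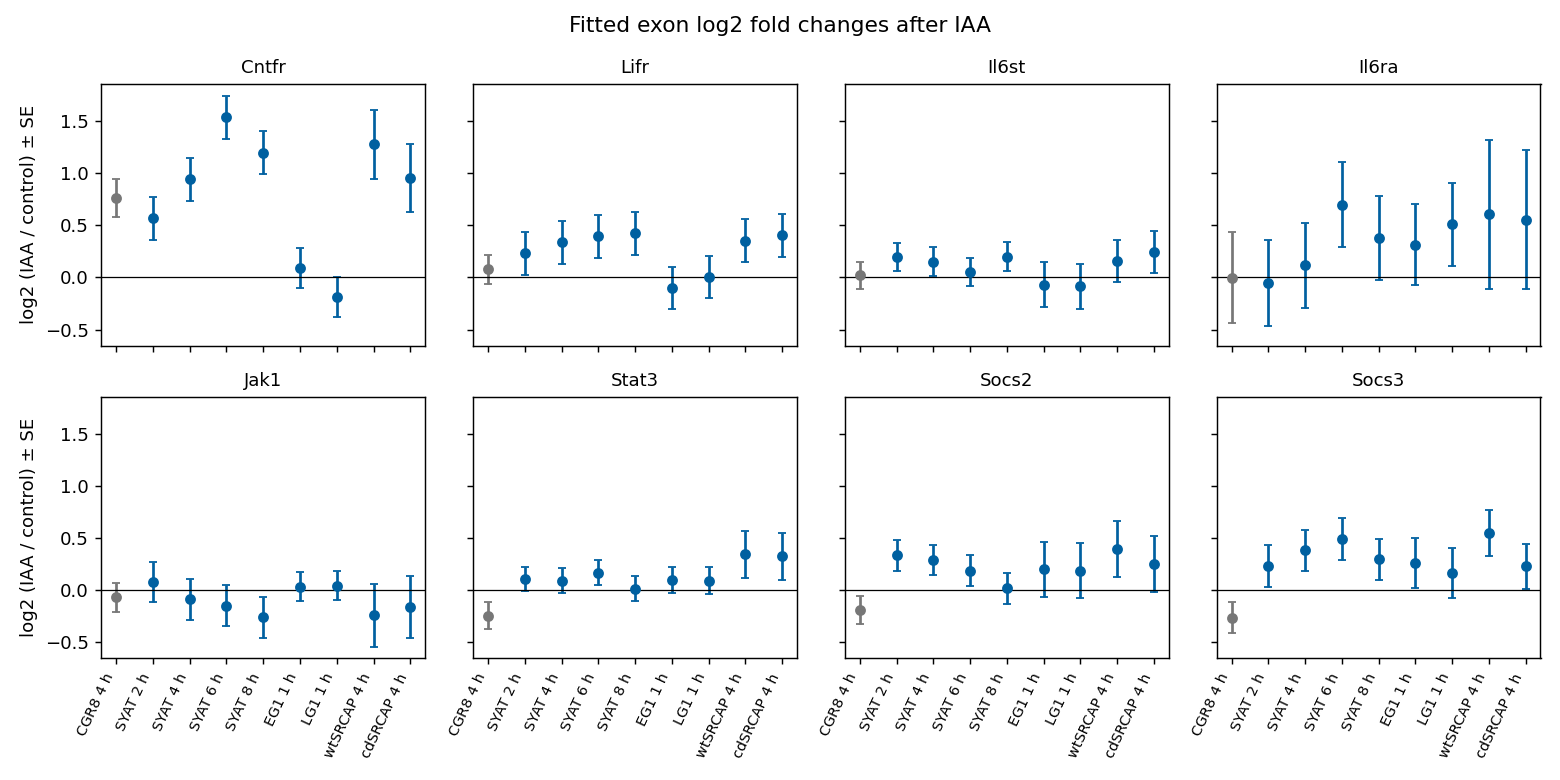
Fitted exon log2 fold change after IAA with its SE for each of the 8 genes, in CGR8 (grey) and in SYAT, sorted, wtSRCAP and cdSRCAP cells (blue). Cntfr reaches 1.54 in the time course and 1.28 with wtSRCAP, and Stat3, Socs2 and Socs3 lie below 0 in CGR8.

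A further 45 genes of the pathway were followed as lists, of which 39 were tested in the exons of the SYAT time course. None was called there by edgeR. At an unadjusted p under 0.05, 11 were higher and 2 lower at 6 h, against 16.1% of all genes in either direction, with 2 higher at 2 h (3.92%), 3 higher at 4 h (9.09%), and 3 higher and 2 lower at 8 h (13.6%). In CGR8 5 were higher and 4 lower of 42 (9.16%), and with wtSRCAP 3 were higher and 0 lower of 40 (7.4%). With cdSRCAP 1 was higher and 2 lower of 40 (5.64%), and in EG1 and LG1 none of 41 passed.

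Most of those that passed at 6 h belong to the genes known to respond to LIF and STAT3 in ES cells, 7 of 9 tested, all of them higher, with a median log2 fold change of 0.53 beside 0.01 for all genes. The same list had 2 of 9 at 2 h (3.92% of all genes), 3 of 9 at 4 h (9.09%) and 3 of 9 at 8 h (13.6%). In CGR8 1 of 10 was higher and 2 were lower (9.16%), with wtSRCAP 2 of 9 were higher (7.4%) and with cdSRCAP 0 of 9 (5.64%). Pim1, a survival kinase gene, was at 31.6 and 28.6 CPM in the SYAT control and 53.4 and 47.7 CPM at 6 h (log2 fold change 0.75, SE 0.18, adjusted p = 0.106 in edgeR). Bcl3, a co-regulator of NF-kB, was at 14.4 and 20.8 CPM against 24.5 and 42.9 CPM (0.93, SE 0.31). Pim3 was at 92.2 and 98.3 CPM against 116 and 274 CPM (1.03, SE 0.30), so that most of its difference came from 1 library. At the same time 3 of 7 ES cell markers were higher at an unadjusted p under 0.05 (16.1% of all genes passed in either direction), with a median of 0.40. Summed primitive endoderm markers were at 17.3 to 17.7 CPM against 12.9 to 16.1 CPM in the control. Summed primed or mesendoderm markers were at 106.9 to 155.2 CPM against 154.3 to 155.9 CPM, with overlap. Their part in these values was not tested, nor was that of the spread between the 6 h replicates, the widest of the time course. In CGR8 the log2 fold change of Pim3 was -0.51 (SE 0.18) and that of Pim1 0.13 (SE 0.14).

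Among ligands at 6 h, Clcf1, whose product is a further ligand of CNTFR, had a log2 fold change of 0.31 (SE 0.43) and Lif of 0.29 (SE 0.23). Neither was called.

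Of the remaining lists, the inhibitor Socs1 was at 7.79 and 5.78 CPM in the control and 11.5 and 16.8 CPM at 6 h (log2 fold change 1.06, SE 0.35, adjusted p = 0.192 in edgeR), and Socs5 had a value of 0.63 (SE 0.26). The phosphatase gene Ptpn6 was at 25.3 and 20.7 CPM against 13.5 and 17.4 CPM (-0.57, SE 0.20). Jak3 had a log2 fold change of 0.60 (SE 0.25), Jak2 of 0.13 (SE 0.47) and Tyk2 of -0.08 (SE 0.29). Stat6 had -0.53 (SE 0.20), Stat5b -0.43 (SE 0.42) and Stat2 -0.35 (SE 0.19). The other receptor chains had log2 fold changes of -0.54 (Il11ra1, SE 0.40), 0.02 (Il27ra, SE 0.49) and -0.01 (Osmr, SE 0.59). None of these was called.

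The 5 genes whose exon levels were most like those of Cntfr over the 10 time course libraries were Chrd (Pearson r = 0.976 of log2 CPM), Rhbdf1 (0.971), Afap1 (0.971), B4galnt1 (0.967) and Dlgap4 (0.963). These libraries share 1 control pair, and r is given as a description. Chrd, a secreted antagonist of BMP, had log2 fold changes of 1.18 at 6 h, 1.20 with wtSRCAP, 0.74 with cdSRCAP and -0.20 in CGR8. B4galnt1, a ganglioside-synthesis enzyme gene, had 1.10, 1.06, 1.21 and -0.30 in the same order. In CGR8, where Cntfr had 0.76, these 5 genes had values between -0.30 and 0.12. Within the list r with Cntfr was highest for Il6ra (0.731) and Socs3 (0.574), followed by Stat3 (0.516) and Lifr (0.470), close to 0 for Socs2 (0.0987) and Il6st (0.0938), and negative for Jak1 (-0.325).

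A further 9 genes within 100 kb of Cntfr were tested in the time course. The nearest in behaviour was Dnaic1, an axonemal dynein chain gene, whose mean level was 1.28 ± 0.235 CPM (SD, n = 2) in the control and 2.91 ± 0.581 CPM at 6 h, a log2 fold change of 1.17 (SE 0.38, adjusted p = 0.184 in edgeR) and of 1.14 at 8 h. Galt (-0.51, SE 0.19) and Dctn3 (-0.46, SE 0.16) lay below their controls at 6 h. Fam219a, Enho, Il11ra1, Rpp25l and Ccl27a had log2 fold changes between -0.54 and 0.36, and none of the 9 was called by edgeR. In CGR8 Dnaic1 had a log2 fold change of 0.45 with an SE of 0.53.

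**Figure D5:**
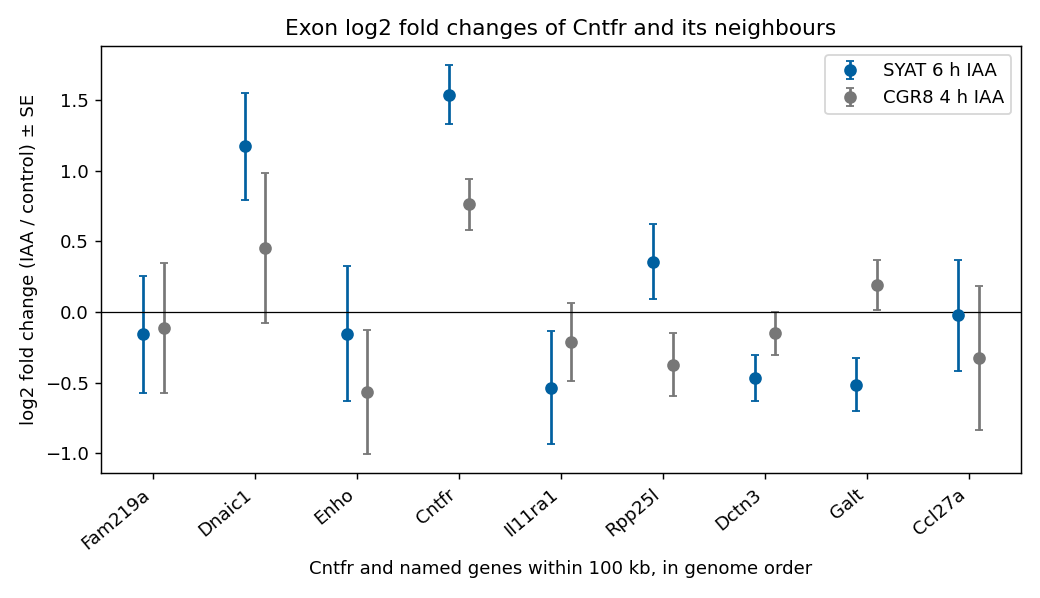
Exon log2 fold change with its SE for Cntfr and the genes within 100 kb named in the text, in genome order, in SYAT cells at 6 h (blue) and CGR8 cells at 4 h of IAA (grey). Cntfr and Dnaic1 reach 1.54 and 1.17 in SYAT cells, and Il11ra1, Dctn3 and Galt lie below 0.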

How the data were processed

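Nuclear RNA libraries were made in biological duplicate, according to the study. The authors deposited whole-number counts per gene, with 1 exon and 1 intron column per library, from reads aligned to mm10 with STAR and counted with featureCounts over GENCODE vM25, introns being gene bodies less exons. The submitters' processing notes also name Picard and SAMtools 1.10. Counting strand was not given in the sources used here: Il6ra, Jak1 and Stat3 overlap genes on the other strand, and Jak1 1 on its own, so reads there cannot be told apart. The deposited tables of the authors' own comparisons hold fold changes and p-values and were not used.

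Each table and column kind was fitted whole in edgeR 4.0.16 (R 4.3.3; TMM scaling, filterByExpr with a minimum count of 10 and total of 15, quasi-likelihood test, 1 coefficient per condition, no replicate block), and p-values were adjusted by Benjamini-Hochberg over all genes tested. In exons and introns of every table all 8 genes passed the filter. SE is the log2 fold change over the square root of F. Alternatives were DESeq2 1.42.0 with shrunken fold changes, RLE size factors, no filter, a replicate block, only the conditions compared, each library left out, and, for the time course introns, the exon column taken off. CPM values use TMM library sizes, and RPKM divides them by GENCODE exon length (55141 of 55401 identifiers matched to vM21). The code was tested on simulated data. Named genes were the 8 members, Srcap, up to 3 genes a list with the largest 6 h log2 fold change plus those called, the tested neighbours within 100 kb, and the 5 genes most correlated with Cntfr; some of these are not reported here. Members and lists were chosen with earlier results of these data known. With 2 libraries a group, p-values measure only the spread between these libraries. Groups without overlap at log2 fold changes under 0.5 are described without the share of all genes, apart from LG1 introns and the opposite pattern in CGR8 and SYAT cells. LG1 against EG1 introns were not compared, since the EG1 intron columns hold exonic reads and those of LG1 nearly none.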

Additional observations from a re-analysis of the deposited data

Results flagged for a closer look

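After 4 h of IAA, Stat3, Socs2 and Socs3 exons were lower in both treated CGR8 libraries than in both controls and higher in both treated SYAT libraries than in both controls. The log2 fold changes in CGR8 and SYAT cells were -0.24 and 0.092 for Stat3, -0.19 and 0.29 for Socs2, and -0.26 and 0.38 for Socs3. In introns the same held for Stat3 (-0.39 and 0.14) and Socs3 (-1.29 and 0.35). The difference between the cell lines was not tested, because their tables were made and scaled separately. Their controls differed too, with auxinole in SYAT cells and no treatment in CGR8 cells. Over all genes in both tables, 3.53% of 18368 in exons and 3.96% of 11505 in introns showed this pattern, and the time course intron columns also hold exonic reads. With the exon column taken off, the SYAT Socs3 intron value was -0.15.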

How the results depend on the processing

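Members called were counted out of 8, or out of 7 in the SYAT time course, where Cntfr is left out because it was chosen for its rise after SRCAP loss. In the other tables Cntfr was kept, and counts that include it are a description. The number was 0 in every comparison but LG1 introns (1), and moved under some settings, and the cause was not tested. With the replicate block it was 1 in CGR8 exons, 1 in EG1 exons, 3 in LG1 introns, 2 in wtSRCAP exons, 2 in wtSRCAP introns and 1 in introns of cdSRCAP against wtSRCAP controls. The share of all genes called was taken for the main fit and DESeq2 only. Member counts under the other settings therefore have no share beside them. With 2 replicates a group each pair of groups gives a single correlation of same-numbered deviations. It was 0.37 to 0.59 in sorted exons, 0.14 to 0.64 in sorted introns, 0.26 to 0.38 in wtSRCAP and cdSRCAP exons and 0.076 to 0.30 in their introns, but 0.074 and 0.060 in CGR8 exons and introns and from -0.036 to 0.64 in the time course, lowest with the 6 h libraries. The labels name no shared batch, so the pairing comes from the data and not from the design. Without the filter on low counts the numbers were 1 in CGR8 exons, 0 in LG1 introns, 2 in wtSRCAP introns and 1 in introns of cdSRCAP against wtSRCAP controls. With only the conditions compared it was 0 in LG1 introns, whose main fit also took in the EG1 columns with their exonic reads. With DESeq2 it was 1 in wtSRCAP introns. Leaving out 1 library gave 0 to 1 in CGR8 exons and in CGR8 introns (1 without control replicate 2), in SYAT exons at 6 h (1 without IAA replicate 1), in EG1 introns (1 without IAA replicate 1) and in wtSRCAP introns (1 without IAA replicate 2), and 0 to 3 in LG1 introns.

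Leaving out 1 library turned the sign of some exon log2 fold changes. In SYAT cells at 2 h that of Lifr ran from -0.013 to 0.52, and in CGR8 that of Il6ra from -0.47 to 0.70. In EG1 that of Socs2 ran from -0.082 to 0.44, and in LG1 that of Socs2 from -0.080 to 0.44 and that of Lifr from -0.20 to 0.23. That of Jak1 ran from -0.63 to 0.10 after IAA with wtSRCAP and from -0.41 to 0.17 with cdSRCAP. Between cdSRCAP and wtSRCAP controls that of Stat3 ran from -0.17 to 0.35 and that of Il6ra from -0.25 to 1.98, beside a main value of 0.81. The SYAT 4 h intron value of Socs3 was -0.15 with the exon column taken off. Of the member values under an alternative, 922 kept their side of the threshold and either kept their direction or stayed within 1 SE of the main value. Time course Cntfr was judged by direction and SE alone. A further 17 passed the threshold where they had not, 4 no longer passed it, and 17, all of time course Cntfr, moved by more than 1 SE. The other 10 turned direction by more than 1 SE, and smaller turns of direction are among the 922.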
